A study of Arabidopsis thaliana with 2 samples.

Results

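The data describe 10 regulators of early endosperm growth in *Arabidopsis thaliana*, measured in the central cell, the cell of the embryo sac from which the endosperm arises once it is fertilized. They were chosen by locus: the HAIKU pathway genes IKU1, IKU2 and MINI3, their upstream regulator SHB1, the transcription factor genes TTG2, ZOU, ICE1 and AP2, the cytokinin oxidase gene CKX2, and the microtubule protein gene EDE1. The 2 replicates together list 17419 loci, among which 7 of the 10 are found. There is 1 condition with 2 biological replicates, CC1 and CC2. Each is a pool of about 450 central cells cut by laser from fixed sections of wild-type ovules of the accession Landsberg *erecta*. The flowers had been emasculated, so that the embryo sacs were mature and unfertilized. RNA-Seq libraries were primed with oligo-dT, amplified and sequenced on the SOLiD platform. In such a pool, more cells of a type and more RNA per cell cannot be told apart.

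In the seed, the endosperm first grows as a syncytium in which nuclei divide without walls, and then forms cells. The HAIKU pathway sets how long the syncytial phase lasts: *iku* and *mini3* mutants cellularize their endosperm early and make small seeds. IKU1 is a protein with a VQ motif that binds the WRKY transcription factor MINI3, IKU2 is a leucine-rich repeat receptor kinase that acts downstream of MINI3, and SHB1 binds the promoters of MINI3 and IKU2. MINI3 in turn activates CKX2, an enzyme that degrades cytokinin. ZOU and ICE1 are bHLH proteins that act as partners in the later breakdown of the endosperm, EDE1 organizes microtubules when the endosperm forms cells, and TTG2 and AP2 set seed size largely from the maternal seed coat.

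The values are hits, the weighted read alignments that fell on a locus. To set the replicates side by side, each value was divided by the summed hits of its own list and given per 1000000 (HPM). Levels of different genes are compared as HPM per kb of the longest annotated transcript. Coverage leans to the 3′ end, and the authors held that scaling by the whole length would understate longer transcripts. They therefore used total hits. Levels per kb of long transcripts may thus be too low. CC1 listed 14454 loci with 15257122 hits and CC2 listed 16391 loci with 14857500 hits. A locus had to reach 5 hits, or 0.328 HPM in CC1 and 0.337 HPM in CC2, and to have a hit close to the 3′ end of a transcript. A locus missing from a list was therefore not measured as 0. With 2 replicates of 1 condition no test was run and no p-value exists. Intervals are 95% Wilson intervals that treat each hit as independent and leave out the spread between replicates. Amplified reads are not independent molecules, so that the intervals are likely too narrow even for counting error. All 6 central cell markers were listed in both replicates, with summed levels of 1573 HPM in CC1 and 1302 HPM in CC2. They are FWA, FIS2, MEA, DME, AGL80 and AGL61, regulators of the central cell and of imprinting in the endosperm. Of the egg cell and synergid markers, the 5 egg cell genes EC1.1 to EC1.5 were listed in both, with summed levels of 1355 and 902 HPM. The synergid factor gene MYB98 was in neither. These sums are not scaled for length. Per kb, the mean levels of the EC1 genes ran from 64.2 HPM for EC1.3 to 1062 HPM for EC1.1. Those of the central cell markers ran from 40.6 HPM for DME to 154 HPM for FWA. The part of egg cell RNA in the values of the members was not tested. Of 9 ovule and integument markers, 2 were listed in both, 3 in CC2 only and 4 in neither, with summed levels of 19.7 HPM in CC1 and 21.8 HPM in CC2.

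The transcripts of 5 members were present in both replicates before fertilization, namely those of IKU1, MINI3, CKX2, ZOU and ICE1. TTG2 and EDE1 were listed in CC2 only, and IKU2, SHB1 and AP2 in neither. The members listed in both make up 50% of the 10, close to the 47.2% found among all 27444 nuclear protein-coding loci. Listing in at least 1 replicate applied to 7 members and to 60.5% of those loci. The count alone thus did not set the members apart. The same shares of all nuclear protein-coding loci are the background for the counts of related genes given below. What differed among the members was their level. IKU1 stood at 65.9 ± 10.8 HPM per kb (SD, n = 2), MINI3 at 16.1 ± 4.64, CKX2 at 7.26 ± 0.981, ZOU at 3.31 ± 0.979 and ICE1 at 1.07 ± 0.398.

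**Figure D1:**
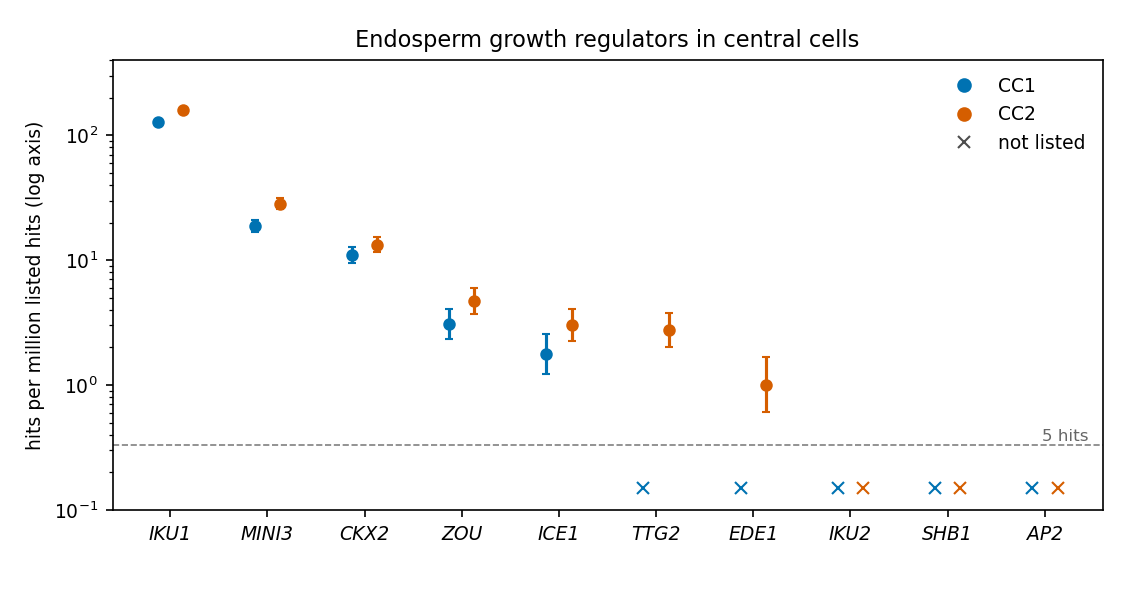
Level of each member in CC1 (blue) and CC2 (orange), in HPM on a log axis. Bars are 95% Wilson intervals, crosses mark loci that were not listed, and the dashed line is the level of 5 hits; IKU1 lies highest at 127 and 160 HPM, and the last 3 loci carry only crosses.

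The sequences that give 4 of these proteins their family names are shown here. Their relatives were found by words in the annotation, without a search for these motifs. All were read from the reference assembly TAIR10.1 (RefSeq annotation), which is the Columbia accession and not that of the libraries. Each is given on the coding strand from 5′ to 3′ with the motif codons in capitals. IKU1 carries its VQ motif in residues 55 to 64 of 402, at chr2:14843018-14843077 on the plus strand. MINI3 holds 1 WRKY heptapeptide, in residues 312 to 318 of 485, at chr1:20774636-20774686 on the minus strand. TTG2 holds 2, in residues 170 to 176 and 354 to 360 of 429, at chr2:15645921-15645971 and chr2:15646547-15646597 on the plus strand. EDE1 has its QWRF motif in residues 283 to 286 of 474, at chr2:18273177-18273218 on the plus strand. Each stretch lies within 1 exon.
IKU1 VQ motif: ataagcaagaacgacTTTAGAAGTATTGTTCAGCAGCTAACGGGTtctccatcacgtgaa
MINI3 WRKY heptapeptide: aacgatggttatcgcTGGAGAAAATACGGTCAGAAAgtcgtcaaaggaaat
TTG2 WRKY heptapeptide, first copy: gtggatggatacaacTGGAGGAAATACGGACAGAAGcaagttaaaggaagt
TTG2 WRKY heptapeptide, second copy: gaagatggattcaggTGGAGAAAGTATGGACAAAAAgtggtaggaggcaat
EDE1 QWRF motif: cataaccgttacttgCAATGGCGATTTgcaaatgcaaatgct

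IKU1 (AT2G35230), the VQ partner of MINI3, was the most abundant member. It had 1934 hits in CC1 and 2378 hits in CC2, which are 127 HPM (121 to 133) and 160 HPM (154 to 167). The counting intervals do not overlap, and CC2 was 1.26-fold above CC1 (log2 ratio 0.34), with a mean of 143 ± 23.5 HPM (SD, n = 2). Ranked per kb, it exceeded 85.7% of the listed loci of known length in CC1 and 90.6% of those in CC2. It lies at chr2:14842291-14844465 on the plus strand, and its longest transcript of 2175 bp is 1 exon without introns. Among the 29 annotated genes of VQ motif proteins, 4 were listed in both replicates, 4 in CC2 only and 21 in neither. Of the 4 in both, IKU1 had the highest level per kb, followed by AT1G32585 at 35.1 ± 2.43 HPM per kb with 338 and 363 hits. AT2G33780 stood at 6.73 ± 0.658 HPM per kb and AT3G56880 at 4.18 ± 2.36. The lower IKU1 value of 58.3 HPM per kb in CC1 was above the higher AT1G32585 value of 36.9 in CC2.

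MINI3 (AT1G55600, WRKY10 in RefSeq), the WRKY factor of the pathway, was listed with 287 hits in CC1 and 422 hits in CC2. These are 18.8 HPM (16.8 to 21.1) and 28.4 HPM (25.8 to 31.2), a log2 ratio of 0.59. The intervals do not overlap, and the mean was 23.6 ± 6.78 HPM (SD, n = 2). Ranked per kb, MINI3 exceeded 54.2% of the listed loci in CC1 and 69.8% in CC2, in the middle of the range and well below IKU1. It is located at chr1:20774046-20776294 on the minus strand and its transcript of 1462 bp has 5 exons, of which 1458 bp are coding.

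Of the 73 genes found by WRKY in their annotated name or description, 12 were listed in both replicates, 2 in CC1 only, 7 in CC2 only and 52 in neither. MINI3 took rank 3 per kb among the 12. WRKY2, known for its role in the polarity of the zygote, stood at 37.3 ± 4.25 HPM per kb with 1868 and 1548 hits. WRKY9 followed at 25.9 ± 0.0459 HPM per kb with 524 and 509 hits. WRKY9 differed little between the replicates, with 34.3 HPM in both, and its values per kb did not overlap those of MINI3.

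TTG2 (AT2G37260), a WRKY factor of the seed coat and of trichomes, was listed in CC2 only. It had 41 hits there, which are 2.76 HPM (2.03 to 3.74) and 1.49 HPM per kb, above 15.4% of the listed loci. CC1 listed no value for it. Among the 3239 loci with 20.5 to 82 hits in CC2, 43.3% (41.6 to 45) were unlisted in CC1, so that absence from 1 list was common at this number of hits. Its place is chr2:15644811-15647076 on the plus strand, with 5 exons in a longest transcript of 1856 bp. TTG2 acts in the integument, and of the integument and ovule markers the same pattern of CC2 only was seen for STK with 172 hits, KAN4 with 41 hits and SHP2 with 35 hits. In contrast, SHP1 with 228 and 59 hits and BAN with 72 and 17 hits were higher in CC1, and BEL1, INO, TT16 and TT1 were in neither list. The part of these markers in the TTG2 value was not tested.

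**Figure D2:**
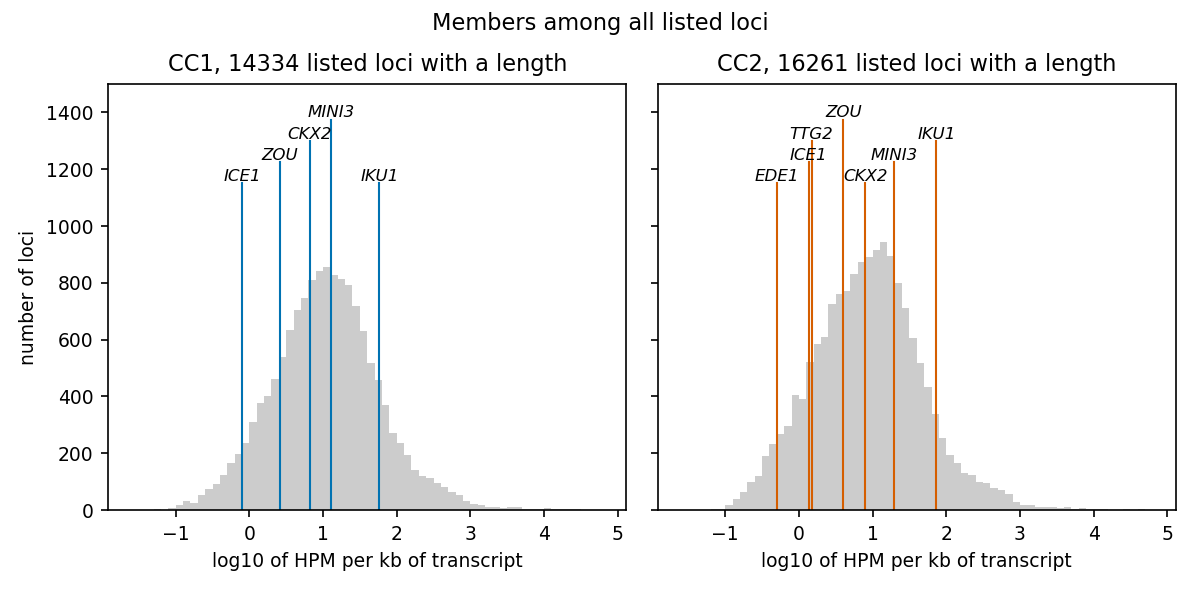
Number of listed loci (grey) by level, as log10 of HPM per kb of the longest transcript, in CC1 (left) and CC2 (right), with the listed members as vertical lines whose height carries no value. IKU1 lies in the upper tail, MINI3 and CKX2 near the centre, and ICE1, TTG2 and EDE1 in the lower tail.

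The other proteins of the pathway, the kinase IKU2 and the activator SHB1, were in neither list. IKU2 (AT3G19700) lies at chr3:6843662-6847275 on the plus strand with 2 exons and a transcript of 3460 bp. Its 3′ part overlaps BCAT4 on the other strand by 307 bp, which was also unlisted. SHB1 (AT4G25350) lies at chr4:12962965-12966629 on the minus strand with 11 exons and a transcript of 2836 bp. SHB1 belongs to the PHO1 family of proteins with SPX and EXS domains, several of which export phosphate. Of the 11 loci of this family, 5 were listed in both replicates and 6, PHO1 itself among them, in neither.

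The highest level per kb among the relatives of SHB1 was that of AT2G03240, at 5.04 ± 1.52 HPM per kb with 336 and 212 hits. AT1G69480 had 28 hits in CC1 and 120 in CC2, AT2G03260 had 62 and 23, PHO1;H3 had 6 and 40, and PHO1;H1 had 27 and 13. These 4 lay between 0.415 and 1.76 HPM per kb and differed between the replicates in both directions. With a minimum of 20 hits in each replicate, 3 of the 5 were left.

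Upstream of SHB1, abscisic acid acts through ABI5 as a repressor, and brassinosteroids act through BZR1 as activators of SHB1, MINI3 and IKU2. Of the 5 hormone genes looked at, 3 were listed in both replicates and 2 in CC2 only. DET2, an enzyme of brassinosteroid synthesis, had 1314 and 1333 hits and stood at 79.9 ± 2.31 HPM per kb. ABA2, an enzyme of abscisic acid synthesis, had 581 and 622 hits and stood at 33.8 ± 2.27 HPM per kb. The regulators were lower. BZR1 had 47 and 78 hits, or 2.51 ± 0.925 HPM per kb, whereas ABI5 with 47 hits and the brassinosteroid receptor gene BRI1 with 141 hits were in CC2 only.

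CKX2 (AT2G19500), the target of MINI3 that degrades cytokinin, had 167 hits in CC1 and 197 hits in CC2. These are 10.9 HPM (9.41 to 12.7) and 13.3 HPM (11.5 to 15.2), with overlapping intervals. The log2 ratio of 0.28 was the smallest of the 5 members, the mean was 12.1 ± 1.64 HPM (SD, n = 2), and 84.2% of the loci with similar hits (of 5 equal groups by mean hits) differed more between the replicates. Ranked per kb, it exceeded 37.2% of the listed loci in CC1 and 48.0% in CC2. CKX2 lies at chr2:8444204-8447355 on the minus strand, with 5 exons in a transcript of 1667 bp. At its 3′ end it overlaps RECA2 on the other strand by 30 bp, and RECA2 had 147 and 221 hits. The libraries carry no strand, so that hits in this overlap cannot be told apart. A non-coding RNA, AT2G00640, overlaps the 5′ part by 666 bp and was unlisted.

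WRKY proteins bind the W-box, whose core is TTGAC. Since CKX2 is a known MINI3 target and both were listed, the 250 bases before the annotated start of CKX2 are shown, at chr2:8447356-8447605 on the minus strand. The sequence is on the strand of the gene, from 5′ to 3′, with each TTGAC on either strand in capitals, so that a copy on the other strand reads GTCAA. It holds 3 copies, of which the nearest ends 111 bp before the start.
CKX2 upstream window: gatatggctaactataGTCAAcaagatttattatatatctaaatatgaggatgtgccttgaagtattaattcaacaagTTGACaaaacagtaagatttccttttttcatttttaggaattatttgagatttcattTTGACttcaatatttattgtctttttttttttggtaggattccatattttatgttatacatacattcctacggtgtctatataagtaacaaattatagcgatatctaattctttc
Of the 27443 such windows of nuclear protein-coding genes, 44.9% hold at least 1 copy and 3.38% hold 3 or more. Among the other members, MINI3 has 2 copies, SHB1 and TTG2 have 1 each, and the rest have none in this window. The E-box CANNTG was searched on both strands in the same way for the bHLH members. It was found in 55.3% of the windows, and 3 or more times in 5.69%. It occurs 3 times before IKU1, 2 times before MINI3 and once each before TTG2 and EDE1, and not before CKX2, ZOU or ICE1. A match of letters does not show that a factor binds there.

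Of the 7 cytokinin oxidase genes, CKX2 was 1 of 3 that both replicates listed. CKX5 was higher at 14.3 ± 6.36 HPM per kb, with 404 hits in CC1 and 756 in CC2. CKX7 had 196 hits in CC1 and 22 in CC2, or 3.47 ± 3.89 HPM per kb, and its CC1 value of 6.21 HPM per kb lay just under the lower CKX2 value of 6.57. CKX1 was listed in CC1 only with 137 hits and CKX6 in CC2 only with 35.8 hits, and CKX3 and CKX4 were in neither. Among the 3 genes in both replicates, CKX2 had the smallest difference between them. Its range of 6.57 to 7.95 HPM per kb lay below that of CKX5, which ran from 9.77 to 18.8.

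Of 22 genes of cytokinin synthesis, perception and response, 5 were listed in both replicates, 2 in CC1 only, 2 in CC2 only and 13 in neither. The isopentenyltransferases in both were IPT9, at 9.56 ± 2.12 HPM per kb, and IPT2, at 8.79 ± 0.363, which modify transfer RNA. The adenylate-type genes IPT1 and IPT3 to IPT8 were in neither. Of the receptor genes, AHK2 was listed in CC1 only with 82 hits, AHK3 in CC2 only with 93 hits and AHK4 in neither. Of the type-A response regulators, ARR17 stood at 12.4 ± 1.67 HPM per kb, ARR6 at 9.70 ± 3.24 and ARR4 at 3.72 ± 1.82. ARR3 had 20 hits in CC1 only and ARR9 had 77 hits in CC2 only.

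ZOU (AT1G49770, RGE1 in RefSeq), the bHLH factor of endosperm breakdown, had 47 hits in CC1 and 70 hits in CC2. These are 3.08 HPM (2.32 to 4.10) and 4.71 HPM (3.73 to 5.95), with overlapping intervals and a log2 ratio of 0.61. The mean was 3.90 ± 1.15 HPM (SD, n = 2). Ranked per kb, it exceeded 18.6% of the listed loci in CC1 and 32.8% in CC2. ZOU lies at chr1:18424578-18426782 on the plus strand, with 3 exons in a transcript of 1178 bp.

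ICE1 (AT3G26744), its partner, which is also known for its role in cold response and stomata, had 27 hits in CC1 and 45 hits in CC2. These are 1.77 HPM (1.22 to 2.57) and 3.03 HPM (2.26 to 4.05), a log2 ratio of 0.78 with overlapping intervals. The mean was 2.40 ± 0.890 HPM (SD, n = 2), and its rank per kb exceeded 5.41% of the listed loci in CC1 and 14.0% in CC2. It was the lowest of the members listed in both. ICE1 lies at chr3:9832667-9835279 on the minus strand, with 5 transcripts, of which the longest measures 2238 bp.

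Of the 136 genes found as bHLH by annotated name or description, 33 were listed in both replicates, 3 in CC1 only, 20 in CC2 only and 80 in neither. ZOU ranked 21st and ICE1 32nd per kb among the 33. The highest were ILR3 at 75.3 ± 3.52 HPM per kb, bHLH115 at 64.4 ± 3.54 and ALC at 49.98 ± 1.61. Of 6 other genes of the ZOU and ICE1 pathway, the receptor kinase gene GSO1 alone was in both, with 56 and 70 hits or 0.981 ± 0.172 HPM per kb. ICE2, the closest relative of ICE1, was in CC1 only with 11 hits. The protease gene ALE1, the receptor gene GSO2 and the loci AT1G50650, annotated as a Stig1 family protein, and AT5G01075 were in neither.

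**Figure D3:**
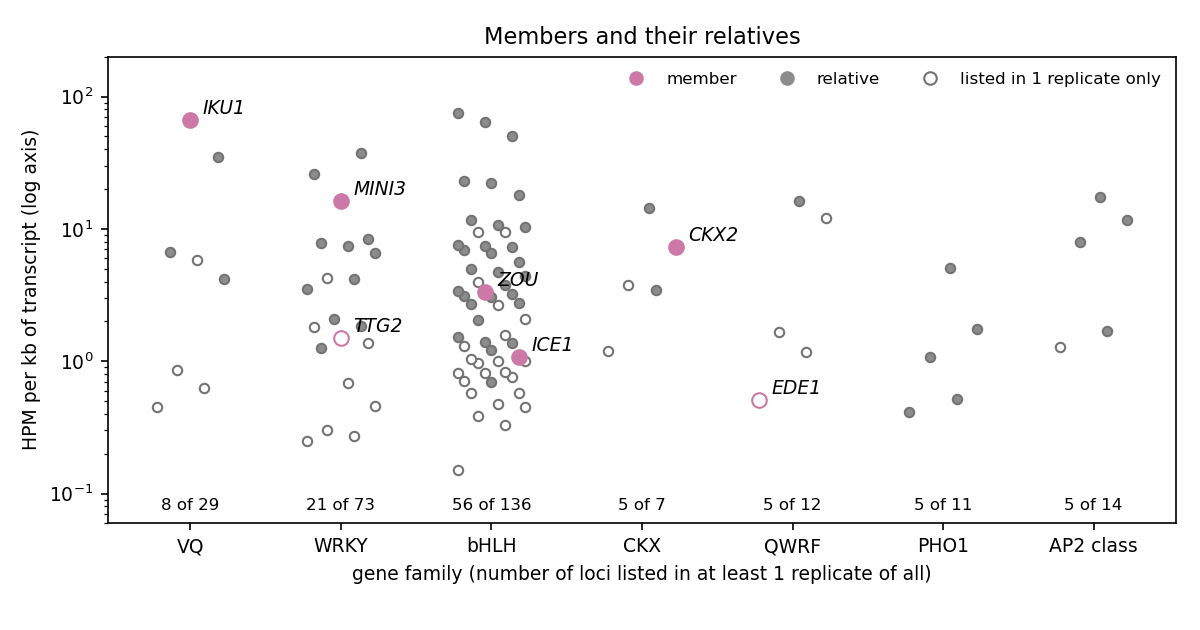
Level of the members (pink) and of their relatives (grey) as HPM per kb of transcript on a log axis, by gene family. Filled points are means of both replicates, and open points are loci listed in 1 replicate, with that value. The counts give the loci listed in at least 1 replicate of all those found for the family. IKU1 is the highest point drawn for its family, MINI3 the one ranked 3 of its own, and SHB1 and AP2 have no point.

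EDE1 (AT2G44190), a microtubule-binding partner of the augmin complex, which starts new microtubules on existing ones, was listed in CC2 only. It had 15 hits there, which are 1.01 HPM (0.612 to 1.67) and 0.505 HPM per kb, above 4.75% of the listed loci. Among the 1835 loci with 7.5 to 30 hits in CC2, 55.7% (53.5 to 58.0) were unlisted in CC1. EDE1 lies at chr2:18272119-18274679 on the plus strand, with 6 exons in a transcript of 1999 bp. Of the 12 genes found for the QWRF family by annotation, 1 was listed in both replicates, 4 including EDE1 in CC2 only and 7 in neither. The gene in both was QWRF6, at 16.1 ± 4.92 HPM per kb with 476 and 299 hits. QWRF3 had 432 hits in CC2, SCO3 had 78 and QWRF2 had 45, each without a value in CC1.

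Of the subunits of augmin, which EDE1 joins, only the genes AUG1 to AUG7 were looked at as a list. All 7 were listed in both replicates, 6 of them with at least 20 hits in each. AUG7 was highest at 28.2 ± 7.26 HPM per kb with 701 and 472 hits, followed by AUG4 at 14.6 ± 9.31 with 204 and 525 hits. AUG2 had 259 hits in CC1 and 32 in CC2, or 6.99 ± 7.66 HPM per kb, so that its level is poorly set. AUG1 and AUG5 were lower in CC2 as well, whereas AUG3 and AUG6 were higher there.

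Of 8 genes of the phragmoplast and the cell plate, the structures that build the new wall, 5 were listed in both replicates, 1 in CC2 only and 2 in neither. KEULE stood at 11.5 ± 7.67 HPM per kb, NEDD1 at 10.05 ± 1.12, TUBG2 at 9.66 ± 2.88, MAP65-3 at 2.51 ± 1.57 and TUBG1 at 0.915 ± 0.677. The kinesin gene HIK had 7 hits in CC2 only. The syntaxin gene KNOLLE, which acts in cell plate fusion, and the kinesin gene TES were in neither list.

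AP2 (AT4G36920), a floral and seed coat regulator that restricts seed size, was in neither list. The gene lies at chr4:17400610-17403469 on the plus strand, with 10 exons in a longest transcript of 1825 bp. AP2 and the TOE genes are targets of the microRNA miR172. The mature miR172a, encoded at chr2:11942918-11942938 on the minus strand, is shown with its seed (bases 2 to 8) in capitals. Also shown are the sites of AP2, which was unlisted, and of TOE2 and TOE3, which were listed. Bases that match the reverse complement of miR172a are in capitals. The part of miR172 in the listing of these genes was not tested. The sites lie in the coding sequence, at chr4:17403019-17403039 on the plus strand for AP2, at chr5:24210889-24210909 on the plus strand for TOE2 and at chr5:26802175-26802195 on the minus strand for TOE3.
miR172a: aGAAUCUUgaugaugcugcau
AP2 site: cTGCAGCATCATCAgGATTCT
TOE2 site: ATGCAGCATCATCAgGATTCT
TOE3 site: tgGCAGCATCATCAgGATTCT
The AP2 site differs from the reverse complement of miR172a at 2 bases, the TOE2 site at 1 and the TOE3 site at 3. The sites of the unlisted targets TOE1, SMZ and SNZ differ at 3, 3 and 4 bases. These counts compare letters only, so that a G facing a U of miR172a counts as a difference.

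Of the 14 genes of the AP2 class, which AP2 names, 4 were listed in both replicates, 1 in CC2 only and 9 in neither. WRI1, a regulator of oil synthesis, stood at 17.3 ± 3.12 HPM per kb with 584 and 440 hits. TOE2 had 877 hits in CC1 and 112 in CC2, or 11.6 ± 12.6 HPM per kb, a spread larger than its mean. TOE3 stood at 8.01 ± 3.38 HPM per kb with 245 and 129 hits. AIL7 had 80 and 5 hits, and AIL6 had 52.2 hits in CC2 only. All 4 in both were higher in CC1. Of all loci listed in both replicates, 46.4% were higher in CC2. Of the 5 MIR172 loci, MIR172B was listed with 10 hits in CC2, or 0.673 HPM, and MIR172A, MIR172C, MIR172D and MIR172E were in neither list. These loci are annotated at 95 to 133 bp. Libraries primed with oligo-dT do not measure the mature microRNA, so that these counts say nothing of its level.

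Of 8 further genes that set seed size from the maternal tissue, as TTG2 and AP2 do, 5 were listed in both replicates. The ubiquitin receptor gene DA1 stood at 60.2 ± 1.76 HPM per kb with 2283 and 2133 hits, close to IKU1, whose range of 58.3 to 73.6 HPM per kb overlaps its range of 59.0 to 61.5. Without length scaling, the mean was 147 HPM for DA1 and 143 HPM for IKU1. CYP78A9 stood at 29.0 ± 5.22 HPM per kb and TTG1 at 17.2 ± 8.32. AT4G36860, a LIM domain relative of DA1, had 51 and 145 hits, and ARF2 had 122 and 148. BB was in CC2 only with 41 hits, and KLU and EOD3 were in neither list.

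By level per kb, the members listed in both replicates fell in the order IKU1, MINI3, CKX2, ZOU and ICE1. IKU1 was 4.08-fold above MINI3, MINI3 2.22-fold above CKX2, CKX2 2.195-fold above ZOU and ZOU 3.09-fold above ICE1. The ranges of neighbours did not overlap, and the smallest step within a replicate was that from MINI3 to CKX2 in CC1, of 1.96-fold. The order was the same in both replicates. In CC2 alone, TTG2 at 1.49 HPM per kb lay next to ICE1 at 1.35, and their hit counts of 41 and 45 do not separate them. EDE1 lay below both.

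All 5 members listed in both replicates had a higher HPM in CC2, against 46.4% of the 13426 loci listed in both. The ratios ran from 1.21-fold for CKX2 to 1.71-fold for ICE1. These ratios are set beside those of loci with similar hits, in the same 5 groups. IKU1 lies in the group with the most hits, where the median difference was 1.21-fold and 42.7% of the loci differed more than IKU1. MINI3 lies in the middle group, with a median of 1.56-fold and 52.8% of loci differing more. ZOU and ICE1 lie in the group with the fewest hits, where the median was 2.07-fold and 69.8% and 61.9% of the loci differed more. The 6 central cell markers and the 5 EC1 genes were all lower in CC2, as the plot of the difference between the replicates shows, and their part in the members' values was not tested. The authors report a lower yield of cDNA for CC1, and the part of this yield in the differences was not tested either.

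**Figure D4:**
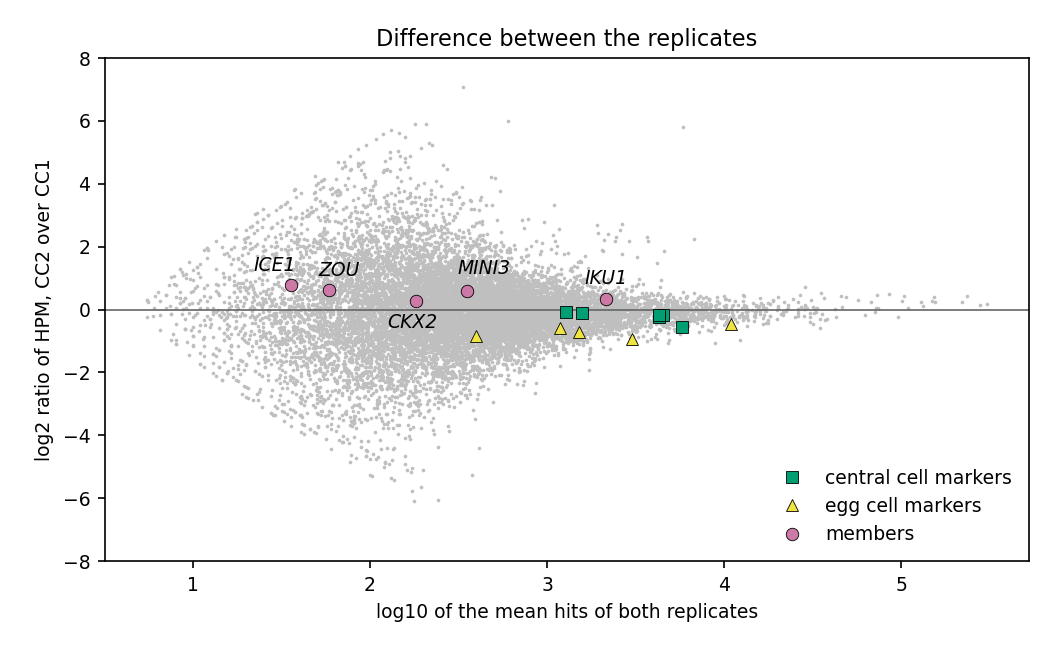
Difference between the replicates, as the log2 ratio of HPM in CC2 over CC1, against log10 of the mean hits, for the 13426 loci listed in both (grey), the listed members (circles), the central cell markers (squares) and the egg cell markers (triangles). The 5 members lie above 0, between 0.28 and 0.78, within the spread of grey points, and all the markers drawn lie below 0.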

How the data were processed

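Each of the 2 replicates has its own table of hits per locus. The authors corrected the SOLiD reads and aligned them with TopHat 1.2. A read with several alignments was split among them according to unique alignments in the neighbourhood, and ambiguous hits were assigned to loci in proportion to their clear ones. The deposited values are thus expected counts (estimated counts) per locus, without scaling for depth or length. A locus entered the authors' list from 5 hits upwards, provided that 1 of them fell in the last 250 bp of a transcript. All 12 listed values of the members were whole numbers, as were 75.6% of all values in CC1 and 75.0% in CC2, with exact equality and no tolerance. Libraries were not stranded, and coverage leans to the 3′ end.

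From these, HPM was computed over all listed hits, with the mean and SD of both replicates, and HPM per kb with the longest transcript in the RefSeq annotation of TAIR10.1, which may differ from the annotation the authors counted on. All 124 list entries matched a locus. In summed levels an unlisted locus entered as 0. The spread between replicates was taken from the loci listed in both, in 5 equal groups by mean hits. WRKY, VQ, QWRF and bHLH families were found by words in gene descriptions or symbols, so that a set may miss members or hold other loci. The other lists were set by locus. In every list, the 3 loci with the most HPM were named, and every locus where 5 or fewer were listed or unlisted. Further list members were named after their values were seen. The members and lists were chosen with earlier results of these data known. No group comparison or p-value was possible. The authors call the replicates biological, and nothing in the labels says more. The authors report a slightly smaller size range and a lower yield of cDNA for CC1, and some fungal contamination in CC1 alone. They consider it unlikely that this contamination affected the alignment to the genome. Alternatives were minimums of 10 and 20 hits, nuclear hits only, scaling with edgeR 4.0.16 (TMM) and DESeq2 1.42.0 size factors on rounded hits, other length scalings, and leaving out each replicate; the scaling step was tested on simulated data. Python 3.11.15 and R 4.3.3 were used.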

Additional observations from a re-analysis of the deposited data

How the results depend on the processing

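The number of members listed in both replicates stayed at 5 with minimums of 10 and 20 hits. The lowest value of these 5 was 27 hits, for ICE1 in CC1, so that these minimums could not lower the number. With 1 replicate left out it lay between 5 (CC1 alone) and 7 (CC2 alone). The order by level was the same for all 5 without length scaling and with the length capped at 1000 bp. Ranks among relatives and among all listed loci were not checked in this way. All 5 stayed higher in CC2 with nuclear hits only, TMM and DESeq2 size factors, although the share of all loci higher in CC2 moved from 46.4% to 46.1%, 50.6% and 49.98%. Mean levels moved by less than 1 SD with nuclear hits only, TMM and DESeq2 size factors. Leaving out a replicate gives the value of the other one alone, which says nothing of stability with 2 replicates. Of the 333 related loci outside the members, 83 were listed in both replicates, 73 with at least 20 hits in each, and 133 in at least 1 replicate. Among all nuclear protein-coding loci, 47.2% were listed in both and 60.5% in at least 1. No paired analysis was possible because there is 1 group. At these depths, loci of few hits were often listed in 1 replicate only, so that the absence of IKU2, SHB1 and AP2 means that they were not detectable by the listing rule, not that the transcripts were lacking.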
